A study of Saccharomyces cerevisiae with 15 samples.

Results

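Late growth on proline was compared with steady-state growth on glutamine in a nitrogen (N) downshift of the yeast Saccharomyces cerevisiae, using 5 of the 15 arrays of the series. The strain was YSBN6, a prototrophic wild type, grown in bioreactor batch cultures on glucose minimal medium in which glutamine and proline were both supplied from the start. No agent was added, and the time of shift is the moment at which glutamine could no longer be detected in the broth, so that proline remained as N-source. The glutamine group held the 3 arrays labelled −10 min, 1 from each of 3 bioreactor cultures. This label is nominal, since the paper's supplement lists earlier actual sampling times, different in each culture. The proline group held 1 array at 56 min and 1 array at 120 min after the shift, both from the culture numbered replicate 1. These late arrays are therefore successive samples of 1 culture and not replicates of a state, and in a batch culture the N-source cannot be told apart from the time for which the culture had run. For both late times the statistical test borrows its spread from the times sampled in 3 cultures. It counts the late arrays as independent, and no other culture has a late array. Its SE and p-values therefore do not measure how the late state varies between cultures.

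Yeast uses glutamine in preference to proline. While glutamine is present, nitrogen catabolite repression keeps the GATA activators Gln3 and Gat1 away from the genes for poor N-sources, and the kinase complex TORC1 sustains ribosome production and holds back stress, autophagy and stationary-phase programmes. Proline enters through Put4 and the general permease Gap1 and is oxidised in mitochondria by Put1 and Put2 to glutamate, from which Gdh2 can release ammonium and Gln1 makes glutamine.

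Each array (Affymetrix Yeast Genome 2.0) gave 1 deposited intensity for each of 10928 probe sets. The comparison used the 5498 of them that are annotated to exactly 1 S. cerevisiae gene (5449 genes). Summed intensities lay between 23040711 and 23323727 for the glutamine arrays and amounted to 24045522 on the 56 min array and 23751424 on the 120 min array. The array also carries 1746 probe sets annotated to another organism, and the 95th percentile of their mean level, 68.1 intensity units, was used as background. On at least 1 of the 5 arrays 170 of the 5498 probe sets were at or below it. The highest intensity was 31675 units, and no upper limit was set. Whether changes of bright genes, such as MEP2, GAP1 and most ribosomal protein genes, read too small near the top of the range was not tested. In a separate fit of the other-organism probe sets, with p adjusted over these alone, 11.1% passed at 0.05 (57 higher and 137 lower late on proline). This share is therefore not the rate at which dim signals passed among the 5498. The 5 measured genes that a prototroph carries and auxotrophic laboratory strains often lack, URA3, LEU2, HIS3, LYS2 and MET17, were all above background on every one of the 5 arrays.

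The state late on proline differed from the glutamine steady state over most of the transcriptome. Taking the mean of the log2 intensities at 56 and 120 min minus that at −10 min, 4522 of 5498 probe sets (82.2%) passed an adjusted p of 0.05 in limma, 2709 of them higher (49.3%) and 1813 lower (33%). Changes of more than 2-fold were found for 567 probe sets that rose (10.3%) and 554 that fell (10.1%), and changes of more than 8-fold for 44 and 48 (0.8% and 0.873%). Both late arrays lay above all 3 arrays at −10 min for 2764 probe sets (50.3%) and below all 3 for 1842 (33.5%). Taken singly, 4351 probe sets (79.1%) passed at 56 min and 4248 (77.3%) at 120 min, and 3837 (69.8%) passed at both times in the same direction. Another 28 (0.509%) passed at both times in opposite directions. Counts for gene groups are to be read against 49.3% higher and 33% lower. The median change over all genes was 0.12 on the log2 scale.

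The late arrays were closer to each other than to the glutamine arrays. The median absolute log2 difference between the arrays at 56 and 120 min was 0.116, against 0.0425 to 0.0632 between the cultures at −10 min and 0.412 to 0.447 between either late array and any array at −10 min. In limma 572 probe sets (10.4%) differed between 120 and 56 min, 255 of them higher at 120 min (4.64%) and 317 lower (5.77%). Higher calls made up 44.6% of these and 55.7% after centring each array on its median. Of the 572, 8 differed by more than 2-fold, all of them higher at 120 min (0.146%) and none lower (0%). With 1 array of the same culture at each time, these calls compare 2 samples and do not separate a change with time from variation between samples. At an unadjusted p under 0.05 there were 1474 such probe sets.

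Genes for uptake and oxidation of proline were higher late on proline, 3 of 4 list members, and that of their activator was lower. PUT4, the proline permease gene, read 5414, 5795 and 4887 intensity units at −10 min, 14623 at 56 min and 14691 at 120 min. Both late arrays lay far above the 3 glutamine arrays and differed little from each other. The log2 change was 1.45 ± 0.072 (SE), with an adjusted p of 1.63e-09 in limma. PUT2, which encodes the second mitochondrial enzyme of proline oxidation, went from 10269, 10507 and 10104 to 21577 and 21343 (log2 change 1.06 ± 0.042). PUT1, the proline oxidase gene, went from 17295, 17314 and 16993 to 25307 and 25797, again without overlap (log2 change 0.57 ± 0.028). PUT3, whose protein activates PUT1 and PUT2 when proline is bound, was slightly lower, at 2045, 2035 and 1867 before and 1637 and 1754 after the shift (log2 change −0.23 ± 0.063, adjusted p = 0.00553 in limma). PUT3 passed at 56 min but not at 120 min when each array was tested alone. Synthesis of proline moved the other way at its first step. PRO1, encoding γ-glutamyl kinase, read 3823, 3717 and 4063 at −10 min and 764 and 1049 late, a log2 change of −2.11 ± 0.075, with both late arrays far below the glutamine arrays. PRO2 changed by −0.45 and PRO3, whose enzyme also serves arginine breakdown, by 0.17 on the log2 scale.

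**Figure D1:**
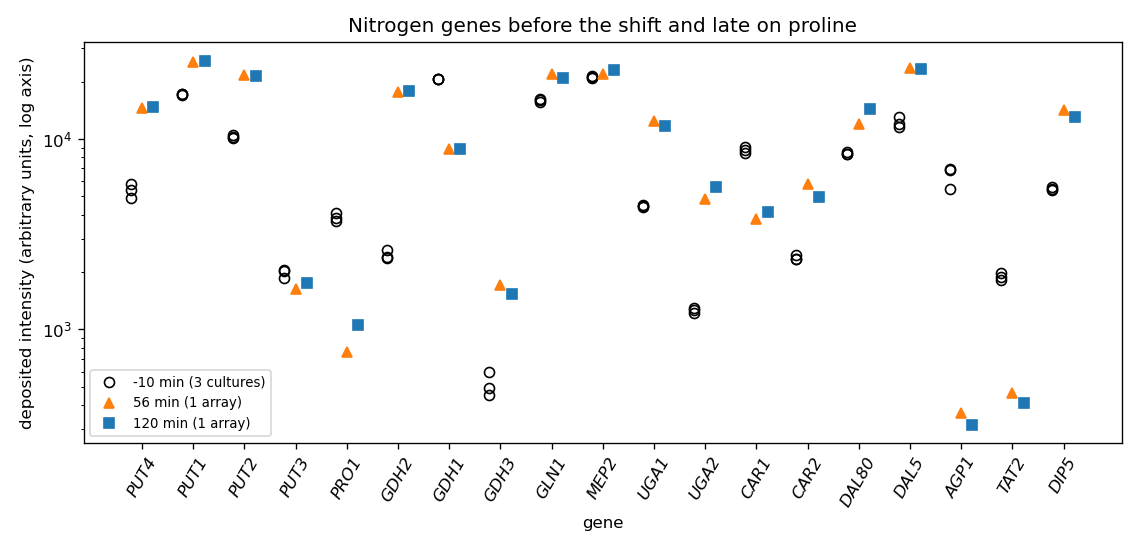
Deposited intensity (arbitrary units, log axis) of 19 genes of N-source use on the 3 arrays at −10 min (open circles, 1 per culture), the array at 56 min (triangles) and the array at 120 min (squares). For PUT4 the late points, 14623 and 14691, stand above all 3 glutamine points, whereas GDH1 and AGP1 stand below them and MEP2 lies close to its level before the shift.

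Of 8 genes for ammonium uptake and the interconversion of glutamate and glutamine 5 were higher and 3 lower, and the largest change was in the enzyme that releases ammonium. GDH2, the NAD-dependent glutamate dehydrogenase gene that frees ammonium from glutamate, read 2412, 2612 and 2379 at −10 min, 17678 at 56 min and 17763 at 120 min. Glutamine and late arrays were far apart, with a 7.19-fold increase (log2 change 2.85 ± 0.073, adjusted p = 8.58e-12 in limma). The NADPH-dependent isozymes that build glutamate moved apart. GDH1, the main isozyme on glucose, fell from 20542, 20747 and 20669 to 8872 and 8827 (log2 change −1.22 ± 0.027), and GDH3 rose from 494, 595 and 450.5 to 1702 and 1541 (1.67 ± 0.13). Glutamine synthetase GLN1 rose by 0.43 and glutamate synthase GLT1 by 0.18 on the log2 scale. Of the ammonium permeases, MEP3 fell from 4343, 4471 and 4325 to 1981 and 1804 (log2 change −1.21 ± 0.041) and MEP1 changed by −0.77 on the log2 scale. MEP2 went from 21214, 20907 and 21414 to 22050 and 22984, a small change of 0.088 on the log2 scale. This change passed at 120 min but not at 56 min alone. Whether so bright a signal understates the change was not tested.

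Genes for the degradation of γ-aminobutyrate (GABA) and ornithine were higher and that of arginase was lower. UGA2, encoding succinate semialdehyde dehydrogenase, read 1212, 1260 and 1287 at −10 min and 4825 and 5594 late (log2 change 2.05 ± 0.061), and the GABA transaminase gene UGA1 went from 4459, 4518 and 4385 to 12451 and 11680 (1.44 ± 0.059). CAR2, ornithine transaminase, which feeds the proline pathway, rose from 2345, 2332 and 2445 to 5774 and 4954 (1.17 ± 0.08). CAR1, the arginase gene one step before it, fell from 8772, 8484 and 9043 to 3793 and 4152 (−1.14 ± 0.061). In all 4 genes the late arrays lay outside the range at −10 min. UGA3, the transcriptional activator of the UGA genes, changed by −0.30 on the log2 scale. Over the 6 members of arginine and GABA breakdown 4 were higher and 2 lower, with a median of 0.84.

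Genes for allantoin and urea use divided. Of 9 measured members 4 were higher, 2 lower and 3 did not pass, with a median log2 change of −0.045, against 0.12 for all genes. The array chosen matters here, since 4 were higher and 5 lower with the 56 min array alone (median −0.17) and 3 higher and 2 lower with the 120 min array alone (median 0.14). DAL5, the allantoate permease gene, read 11600, 13114 and 11980 at −10 min and 23530 and 23390 late (log2 change 0.94 ± 0.051), and the urea permease DUR3 went from 3362, 3316 and 3352 to 4882 and 7782 (0.88 ± 0.11). DAL82, one of the pathway's activators, rose by 0.70 on the log2 scale, and its partner DAL81 by 0.23. DAL2 (allantoicase) fell from 3791, 3971 and 3578 to 1719 and 2700 (−0.81 ± 0.10), and DAL3 (ureidoglycolate lyase) changed by −0.56 on the log2 scale. DAL1, DAL4 and DAL7 did not pass (log2 change −0.26, −0.13 and −0.045). DAL2 and DUR3 were among 4 members that were higher at 120 than at 56 min, together with DAL3 and DAL7, by 0.25 to 0.67 on the log2 scale.

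Of 5 GATA factor and URE2 genes none changed by 2-fold. DAL80, a GATA repressor that is also a target of catabolite repression, read 8297, 8337 and 8521 at −10 min and 11912 and 14383 late, a log2 change of 0.64 ± 0.06 with no overlap. GLN3, the activator, fell from 1093, 1222 and 1118 to 882 and 909.6 (−0.35 ± 0.064), and URE2, the protein that holds Gln3 in the cytoplasm, changed by −0.18 on the log2 scale. GAT1 passed with a change of −0.10, which turned to 0.081 when the array at 120 min was used alone. GZF3, the other GATA repressor, did not pass (−0.053).

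Amino acid permease genes changed in both directions. The SPS sensor reads external amino acids at the plasma membrane and, through Stp1 and Stp2, induces a set of permease genes. AGP1, a broad-range permease of this set, was among the largest falls of the array, from 6853, 5428 and 6931 to 362 and 316, an 18.8-fold decrease (log2 change −4.23 ± 0.11, adjusted p = 1.02e-11 in limma). The tryptophan and tyrosine permease TAT2 fell from 1980, 1811 and 1879 to 463 and 412 (−2.11 ± 0.084), and the glutamine permease GNP1 fell from 3447, 3424 and 3649 to 959 and 991 (−1.85 ± 0.094). In these 3 genes every late array was below every glutamine array. DIP5, the acidic amino acid permease, went the other way, from 5587, 5457 and 5398 to 14158 and 12994 (1.31 ± 0.095). BAP2 had all 3 arrays at −10 min at or below background and rose at least 1.93-fold, a bound computed with dim arrays raised to background. PTR2, the di- and tripeptide transporter, went from 3268, 3478 and 2572 to 5457 and 4289 (0.65 ± 0.13), the methionine permease MUP1 from 4704, 4669 and 4597 to 2519 and 3661 (−0.62 ± 0.13) and TAT1 changed by −0.59 on the log2 scale. Over the 14 members 5 were higher, 6 lower and 3 did not pass, with a median of 0.041. This median was −0.0042 after centring each array on its median, −0.05 with the 120 min array alone, and −0.025 and −0.029 without the −10 min array of replicate 1 and of replicate 3. The sensor gene SSY1 and the protease gene SSY5 did not pass (log2 change 0.088 and 0.11), and BAP3 did not pass either (−0.005). PTR3 changed by 0.17, STP2 by 0.81 and STP1 by −0.37 on the log2 scale.

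Of 9 permease genes outside the SPS set 4 were higher and 4 lower, with a median of 0.051 that was −0.07 after quantile normalization. AGP3, a low-affinity permease, rose from 338, 342 and 336 to 1737 and 1941 (2.44 ± 0.087), AGP2 rose by 1.76 and ALP1 by 1.54 on the log2 scale. The histidine permease HIP1 fell from 2571, 2658 and 2493 to 1400 and 1293 (−0.94 ± 0.05). GAP1, the general permease, was looked up after the values had been seen, and went from 18361, 19273 and 18489 to 19984 and 19894, a small change of 0.092 on the log2 scale that passed the test.

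Every measured gene of the TCA cycle, 17 of 17, was higher, with a median log2 change of 0.88 and 6 rises beyond 2-fold. ACO1 (aconitase) rose from 3025, 3106 and 2880 to 12431 and 12147 (log2 change 2.03 ± 0.061, adjusted p = 2.15e-11 in limma). The isocitrate dehydrogenase subunits IDH1 and IDH2, at the branch that yields 2-oxoglutarate, rose by 1.63 and 1.55 on the log2 scale, and citrate synthase CIT1 went from 7165, 7234 and 6980 to 16838 and 15814 (1.20 ± 0.049). None of these genes had overlapping groups. Of 7 targets of the retrograde pathway, by which mitochondria signal a shortage of glutamate precursors, 6 were higher, with a median of 1.20. CIT2, the peroxisomal citrate synthase that reports this pathway, changed by 1.18 and DLD3, a lactate dehydrogenase, by −0.49 on the log2 scale. ACO1, IDH1, IDH2 and CIT1 belong to both lists.

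Respiratory genes followed, with isoforms moving unequally. Of 35 measured members of complexes III to V and the alternative dehydrogenases 33 were higher, CYC1 was lower and ATP20 did not pass, with a median log2 change of 0.54. The largest rise was that of NDE2, an external NADH dehydrogenase gene, from 199, 201 and 195 to 1894 and 2449 (3.44 ± 0.11). CYC7, cytochrome c isoform 2, rose from 1075, 1009 and 1075 to 7026 and 6232 (2.65 ± 0.12) whereas CYC1, isoform 1, fell from 5195, 5045 and 5127 to 2961 and 2491 (−0.92 ± 0.049). COX5B, known as the hypoxic form of a cytochrome oxidase subunit, rose from 4052, 3902 and 3856 to 12345 and 12122 (1.64 ± 0.043). Its aerobic form COX5A rose by 0.29 on the log2 scale. Of 55 genes of the mitochondrial ribosome 14 were higher and 21 lower, with a median of −0.02. After quantile normalization 9 were higher and 27 lower (median −0.083), and with the 56 min array alone 12 were higher and 15 lower (median 0.02).

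Genes of the glyoxylate cycle, gluconeogenesis and fatty acid oxidation were higher although glucose was the carbon source of the medium. Of 14 members of the glyoxylate and gluconeogenesis list 12 were higher and none lower, with a median log2 change of 1.04. MLS1, malate synthase, read 152, 201 and 154 at −10 min and 3410 and 3426 late, a 20.4-fold increase (4.35 ± 0.14, adjusted p = 4.55e-11 in limma). MDH2, the cytosolic malate dehydrogenase, rose from 1361, 1398 and 1315 to 9261 and 10251 (2.84 ± 0.12) and PCK1 from 314, 330.4 and 268 to 1423 and 1350 (2.19 ± 0.10). FBP1, which encodes the other key gluconeogenic enzyme, did not pass (log2 change 0.039), and neither did the lactate and pyruvate permease JEN1 (−0.21). Of 22 peroxisomal and β-oxidation genes 19 were higher and 1 lower. POT1, the peroxisomal thiolase, was below background at −10 min (45.8, 52.2 and 59.9) and read 637 and 1028 late, at least 11.9-fold higher. CRC1, the mitochondrial carnitine carrier, rose from 99.2, 107 and 101 to 871 and 939.9 (3.15 ± 0.11).

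Storage carbohydrate genes were higher with 1 exception. Of 21 measured genes of trehalose and glycogen 20 were higher, 18 of them by more than 2-fold, and PGM1 was lower, with a median log2 change of 1.47. GAC1, the subunit that directs phosphatase to glycogen synthase, was below background on all glutamine arrays (56.9, 53 and 39.9) and read 1564 and 1261 late, at least 20.6-fold higher. GPH1, glycogen phosphorylase, rose from 1689, 1742 and 1461 to 15577 and 15837 (3.27 ± 0.10, adjusted p = 3.36e-11 in limma) and GDB1, the debranching enzyme, from 1176, 1246 and 1130 to 8468 and 7838 (2.78 ± 0.076). Genes for making and for breaking down glycogen thus rose together. GIP2, a further putative phosphatase subunit, rose by 3.01 on the log2 scale.

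The targets of the stress activators Msn2 and Msn4 were higher in 27 of 28 measured members, none lower and 19 of them by more than 2-fold, with a median of 1.58 (1.25 at 56 min and 1.71 at 120 min alone). CTT1, cytosolic catalase, read 1634, 1844 and 1648 at −10 min and 13814 and 14333 late (3.04 ± 0.10, adjusted p = 5.64e-11 in limma). PAI3, an inhibitor of the vacuolar protease Pep4, rose from 376, 366 and 405 to 3590 and 5211 (3.50 ± 0.10). MSC1 rose by 2.94 and GAD1, glutamate decarboxylase, which makes GABA, by 2.55 on the log2 scale. SSA3, a heat shock gene, was the member that did not pass (−0.049). This list includes PAI3 and TFS1, which are also counted among the vacuolar genes. Among 13 stationary-phase genes 10 were higher and 2 lower, with a median of 0.54 and 4 rises beyond 2-fold. At both late times 7 were higher and 1 lower. SPG4 rose from 189.9, 226 and 196 to 2789 and 5029 (4.20 ± 0.10), and RTC3 and SPG1 rose by 2.13 and 1.96 on the log2 scale.

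Genes of the vacuole, of autophagy and of the proteasome were higher. All 11 measured vacuolar proteases and inhibitors were higher, with a median log2 change of 1.41. The protease B gene PRB1 rose from 5764, 6129 and 5514 to 18961 and 19158 (1.72 ± 0.057), and TFS1, an inhibitor of carboxypeptidase Y, from 4573, 4574 and 4216 to 20699 and 20849 (2.22 ± 0.085). Of 30 autophagy genes 26 were higher, 3 lower (ATG5, ATG10 and ATG27) and ATG12 did not pass, with a median of 1.09. ATG8, the ubiquitin-like protein of the autophagosome, rose from 2763, 2615 and 2599 to 11194 and 11166 (2.07 ± 0.079), ATG29 from 102, 83.8 and 84 to 389 and 367 (2.08 ± 0.15), and ATG14 by 1.75 on the log2 scale. All 34 proteasome genes were higher as well, but with a median of only 0.32. Only RPN4, their transcriptional activator, exceeded 2-fold, from 4361, 4384 and 4390 to 8317 and 9814 (1.05 ± 0.041).

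Genes of ribosome production were lower without exception among those that passed. Of 148 ribosome biogenesis genes 147 were lower, 142 of them by more than 2-fold, and none was higher, with a median log2 change of −2.40. SSF2 was the member that did not pass (−0.13). DBP2, an RNA helicase of ribosome and mRNA maturation, had the largest fall of all, from 5266, 5422 and 5086 to 126 and 141, a 39.4-fold decrease (−5.30 ± 0.099, adjusted p = 2.28e-12 in limma). NSR1, a nucleolar protein of rRNA processing, fell from 7300, 7418 and 7406 to 342 and 335 (−4.44 ± 0.17). All 24 genes of RNA polymerases I and III and their initiation factors were lower, with a median of −1.68. RPA49, RPA135 and RPA43, subunits of the polymerase that transcribes rRNA, changed by −3.64, −3.55 and −3.52 on the log2 scale. RPA43 read 3917, 4120 and 3629 at −10 min against 247 and 465 late.

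Structural genes of the cytosolic ribosome were all lower, 75 of the large subunit (median log2 change −1.32) and 52 of the small subunit (−1.38). The changes closest to 0 were −0.24 and −0.32 on the log2 scale. RPL9A fell furthest, from 16467, 15562 and 16218 to 1335 and 1504 (−3.50 ± 0.066). RPL22B fell from 7437, 7252 and 7379 to 793 and 752 (−3.25 ± 0.073) and RPS9A from 7501, 7076 and 7753 to 1320 and 857 (−2.81 ± 0.057). Each of these is 1 gene of a duplicated pair, and the partners changed by −1.06 (RPL9B), −1.70 (RPL22A) and −1.96 (RPS9B). These partners were looked up after the values had been seen, and where copies are near-identical their probes may not separate them. Of 12 regulators of ribosome genes 4 were higher, 5 lower and 3 did not pass, with a median of 0.065 that was −0.028 after quantile normalization. TOD6, a repressor of ribosome biogenesis genes, was lower, from 937, 946 and 871 to 173 and 204 (−2.29 ± 0.19), and STB3, a repressor of the same genes, was higher by 0.85. CRF1, a corepressor of ribosomal protein genes, was higher by 0.98, and MAF1, the repressor of RNA polymerase III, by 0.83 on the log2 scale.

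Translation machinery was lower to a smaller extent. Of 34 translation factor genes 30 were lower and 1 higher (CAM1), with a median log2 change of −0.72. TIF4631, the initiation factor 4G gene, fell from 4960, 5037 and 4806 to 1360 and 1619 (−1.73 ± 0.062), and the initiation factor genes NIP1, PRT1 and TIF3 changed by −1.63, −1.30 and −1.47 on the log2 scale. Of 19 cytosolic tRNA synthetase genes 18 were lower, with a median of −0.71. The exception was GUS1, the glutamyl-tRNA synthetase, which was higher by 0.22 on the log2 scale. MES1 and KRS1, for methionine and lysine, changed by −1.37 and −1.34.

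**Figure D2:**
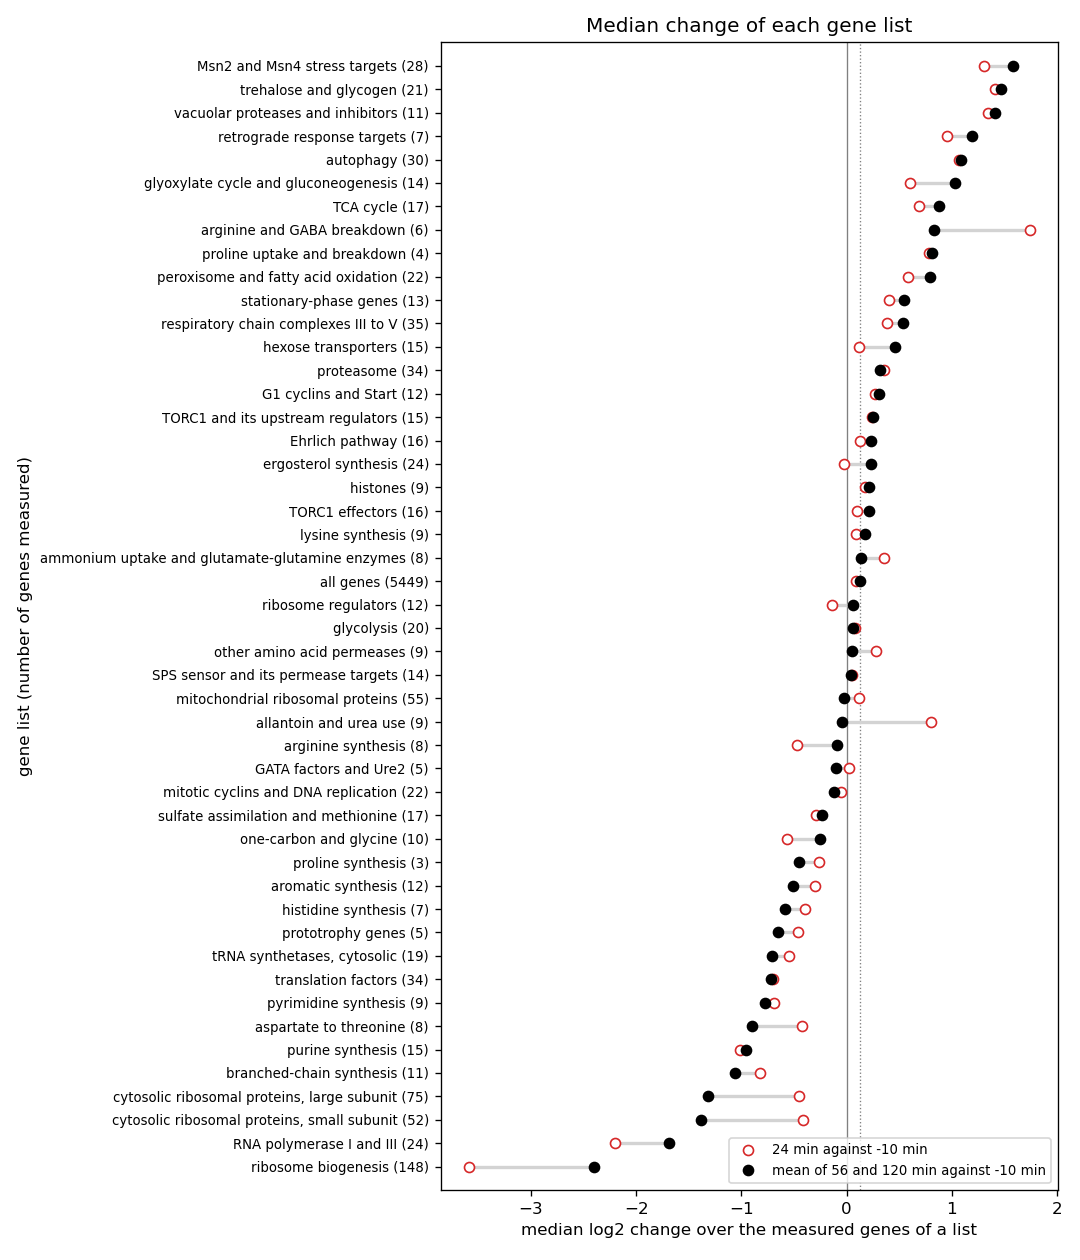
Median log2 change over the measured genes of each list (number in parentheses) for the mean of 56 and 120 min (filled) and for 24 min (open), both against −10 min. Ribosome biogenesis lies at the bottom with −2.40 late and −3.59 at 24 min, the ribosomal protein lists lie at −0.45 and −0.41 at 24 min and at −1.32 and −1.38 late, and the dotted line marks the late median of all genes, 0.12. Both series of points share the arrays at −10 min.

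Amino acid synthesis was lower in most branches but not in all. Of 11 genes of branched-chain synthesis 10 were lower, with a median of −1.06. LEU9, an α-isopropylmalate synthase, fell from 5858, 5889 and 5811 to 400.3 and 405, 14.5-fold (−3.86 ± 0.078), and ILV3, dihydroxyacid dehydratase, from 12677, 12888 and 12717 to 2938 and 3584 (−1.98 ± 0.029). BAT2, the cytosolic transaminase, was the exception and rose from 4362, 4488 and 4120 to 14706 and 14868 (1.78 ± 0.057). In the pathway from aspartate to threonine 7 of 8 genes were lower (median −0.90), led by aspartate kinase HOM3, from 9277, 9234 and 9208 to 2434 and 3079 (−1.76 ± 0.041). Asparagine synthetases ASN1 and ASN2 changed by −1.01 and −0.97 on the log2 scale. Of 12 aromatic genes 11 were lower (median −0.51), ARO4 with −1.92, and of 7 histidine genes 6 were lower (median −0.58), HIS6 with −1.81 on the log2 scale. Of 17 genes of sulfate assimilation and methionine synthesis 13 were lower, but none by 2-fold (median −0.24).

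Genes of lysine and arginine synthesis changed in both directions. Of 9 lysine genes 6 were higher and 2 lower (median 0.17), with LYS1, saccharopine dehydrogenase, rising from 13406, 13510 and 13280 to 19205 and 18633 (0.50 ± 0.03) and LYS4, homoaconitase, changing by −0.50 on the log2 scale. Of 8 arginine synthesis genes 3 were higher and 4 lower, near the background shares. ARG2, ARG7 and ARG8, which make ornithine from glutamate, changed by −0.88, −0.90 and −0.78, whereas ARG3, which uses ornithine, rose from 7173, 7458 and 7215 to 11132 and 10571 (0.58 ± 0.03) and ARG1 did not pass (−0.038).

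Genes of nucleotide synthesis were mostly lower. Of 15 purine genes 14 were lower and 1 was higher, by 0.63 on the log2 scale, with a median of −0.96. IMD4, an IMP dehydrogenase on the way to GTP, fell from 8284, 8116 and 8339 to 997 and 1073 (7.97-fold), and GUA1, the next step, from 13117, 13171 and 12657 to 1768 and 3172 (−2.45 ± 0.063). The glutamine and the late arrays were far apart in each gene. IMD4 is 1 of several closely similar genes, which its probes may not separate. Of 9 pyrimidine genes 7 were lower. URA7, the main CTP synthetase, fell 19.1-fold, from 5884, 6054 and 5821 to 259.8 and 369 (−4.26 ± 0.14), while its isozyme URA8 rose from 4237, 4484 and 4087 to 10439 and 9374 (1.21 ± 0.047). URA10, the minor orotate phosphoribosyltransferase, and URA1, dihydroorotate dehydrogenase, changed by 1.67 and −2.95 on the log2 scale. Of 10 one-carbon and glycine genes 6 were lower and 3 higher, with a median of −0.25, and only 1 fell by more than 2-fold. That was MIS1, mitochondrial C1-tetrahydrofolate synthase, from 7274, 7239 and 7612 to 1061 and 1235 (−2.69 ± 0.063). RKI1, which makes ribose 5-phosphate, fell 18.5-fold, from 5553, 5702 and 5673 to 251 and 371.

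The largest rises included genes of minor isozymes and of little-studied proteins. PDC6, a minor pyruvate decarboxylase isozyme, read 403, 386 and 412 at −10 min and 14219 and 15302 late, a 36.9-fold increase (5.20 ± 0.11, adjusted p = 3.76e-12 in limma). HXT5, a hexose transporter of slowly growing and non-growing cells, rose from 264, 267 and 295 to 5115 and 5697 (4.29 ± 0.11). YNL194C, a membrane protein of the cell cortex, rose 24.6-fold, FMP16 18.2-fold, MOH1 19.2-fold and the zinc-finger protein gene LEE1 15.4-fold. SUE1, needed for turnover of unstable cytochrome c, rose 15.9-fold. FIT2, a cell wall mannoprotein that retains siderophore iron, read 763, 765 and 776 at −10 min and 10169 and 11583 late, with an SE of 0.081 around its log2 change of 3.82. In none of these did a late array come near the glutamine arrays. Of the largest falls not yet named, SYO1, an import chaperone of ribosomal proteins, fell 16.5-fold, LTV1 12.5-fold and NOP13 12.4-fold. YMR230W-A and YGL188C-A ended below background and fell at least 10.9-fold and at least 3.8-fold.

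**Figure D3:**
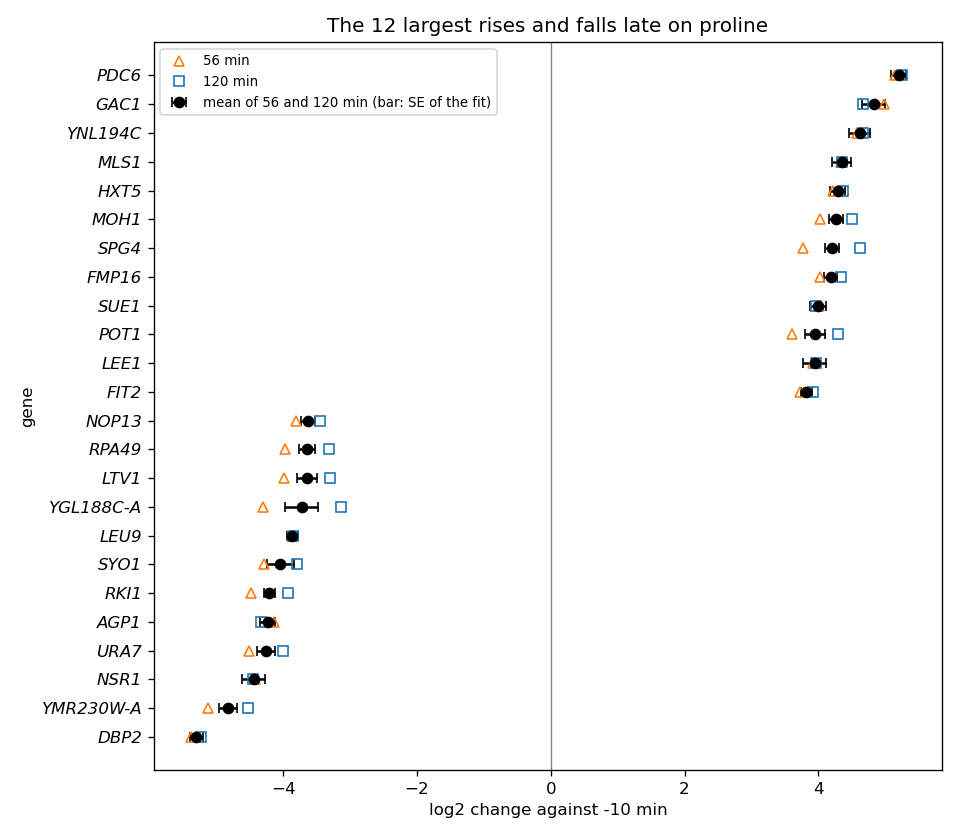
Log2 change against −10 min of the 12 largest rises and 12 largest falls: the mean of both late arrays with the SE of the fit (filled), 56 min (triangles) and 120 min (squares). Changes run from −5.30 for DBP2 to 5.20 for PDC6. The genes were required to pass at both late times. For GAC1 and POT1 (dim before the shift) and YMR230W-A and YGL188C-A (dim after it) the fitted values are not bounds.

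Genes of glycolysis and sugar uptake changed unequally. Of 20 glycolytic genes 13 were higher, 2 lower and 5 did not pass, with a median of 0.065, below the median of all genes, and after quantile normalization 7 were higher and 5 lower with a median of −0.0015. Median centring gave 6 higher and 3 lower. This list includes PDC6. The glucokinase and hexokinase 1 genes GLK1 and HXK1 rose by 1.16 and 1.58, and TDH1 by 1.06 on the log2 scale. HXK2, the hexokinase that dominates on glucose, changed by −0.56. Among 15 hexose transporters and sensors 11 were higher and 3 lower, but 7 were higher and none lower at both late times, and with the 120 min array alone 7 were higher and 1 lower. Of the 15, 5 were at or below background on some array (HXT8, HXT10, HXT11, HXT13 and HXT14). HXT7 changed by 2.14 and HXT4 by 1.11 on the log2 scale. HXT7 was read by probes shared within its family. HXT14 passed the test but stayed below background on every array.

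No member of the cell cycle and histone lists changed by 2-fold. Of 12 genes of G1 and Start 9 were higher and 1 lower (median 0.31), the cyclins PCL1 and CLN2 by 0.77 and 0.57. Of 22 genes of mitotic cyclins and replication 11 were lower and 5 higher (median −0.12), with CLB6 and CLB3 at −0.73 and −0.64 and the ribonucleotide reductase genes RNR2 and RNR4 at 0.89 and 0.75 on the log2 scale. Of 9 histone genes 7 were higher, the linker histone HHO1 by 0.90, and HTB2 and HTZ1 did not pass. Of 24 ergosterol genes 15 were higher and 3 lower (median 0.23), and 14 were higher and 8 lower after quantile normalization, led by ERG28 with 0.83 on the log2 scale.

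Genes of TORC1 and its regulators changed by less than 2-fold without exception. Of 15 measured members 10 were higher and 3 lower (KOG1, MEH1 and SEA4), with a median of 0.25. The higher members were 8 after quantile normalization (median 0.15), after median centring (0.20) and with the 120 min array alone (0.17). The largest rises were those of the SEACIT subunits IML1 and NPR2, which restrain TORC1 when N is short, IML1 from 2685, 2821 and 2603 to 4990 and 4395 (0.79 ± 0.052) and NPR2 by 0.77 on the log2 scale. Of 16 effectors 9 were higher and 2 lower (median 0.21), the higher members being near the share of 49.3% over all probe sets. RIM15, the kinase that promotes entry into quiescence, rose from 1316, 1356 and 1197 to 2387 and 2427 (0.90 ± 0.069), and TAP42 and the kinase NPR1 rose by 0.49 and 0.48.

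In the Ehrlich pathway, which removes amino groups from aromatic and branched-chain amino acids, the inducible genes rose. ARO9, aromatic transaminase, went from 164, 168 and 154 to 416 and 464 (1.44 ± 0.098) and ARO10, the decarboxylase, from 82.3, 78.7 and 95.7 to 256 and 285 (1.66 ± 0.13), without overlap. The list also holds PDC6 and BAT2. In all 10 of 16 members were higher and 4 lower (median 0.24).

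Where the late arrays stood relative to the early response was tested directly against the 3 arrays at 24 min. In limma 3073 probe sets (55.9%) differed between the mean of 56 and 120 min and 24 min, 2000 of them higher late (36.4%) and 1073 lower (19.5%). The higher share, 65.1% of the calls, depends on the scaling of the arrays, since it was 49.9% after quantile normalization and 51.5% after centring each array on its median. Of the 4522 probe sets called against −10 min, 1872 (34% of all) also differed from 24 min in the same direction. A further 822 (15%) had moved back towards the glutamine level, and 1828 (33.2%) did not pass against 24 min. No condition was put on the change at 24 min itself, so the 1872 can include probe sets with no change or an opposite change at that time. At 24 min itself 4517 (82.2%) passed against the same arrays at −10 min. Another 494 (8.99%) were called at 24 min and not late. Within the 4522, 499 (9.08% of all) were not called at 24 min and 178 (3.24%) were called there in the opposite direction.

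Ribosome biogenesis and ribosomal protein genes moved in opposite directions after 24 min. Biogenesis genes recovered in part, with 135 of 148 higher late than at 24 min and 3 lower, and a median change from −10 min of −3.59 at 24 min and −2.40 late. PUF6, NOC2 and TRM11 were among the 4 largest increases over 24 min. NOC2, a factor of large-subunit export, read 3205, 3186 and 3215 at −10 min, 107, 80.7 and 83.5 at 24 min and 412 and 635 at 56 and 120 min, a late minus 24 min difference of 2.51 ± 0.13 on the log2 scale (adjusted p = 1.78e-08 in limma). Its late arrays thus lay above 24 min and still below the glutamine arrays. TRM11, a tRNA methyltransferase subunit, and PUF6 differed from 24 min by 2.48 and 2.49. Ribosomal protein genes went further down, with 74 of 75 of the large and 50 of 52 of the small subunit lower late than at 24 min, and medians of −0.45 and −0.41 at 24 min against −1.32 and −1.38 late. RPL9A read 9742, 12072 and 10645 at 24 min and differed late by −2.93 ± 0.066 (adjusted p = 4.99e-11 in limma). Of the polymerase I and III genes 22 of 24 were higher late than at 24 min. Between the late arrays, 42 of 148 biogenesis genes were higher at 120 than at 56 min and none lower, against 4.64% and 5.77% of all probe sets. This last comparison is of 1 array with 1 array of the same culture.

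**Figure D4:**
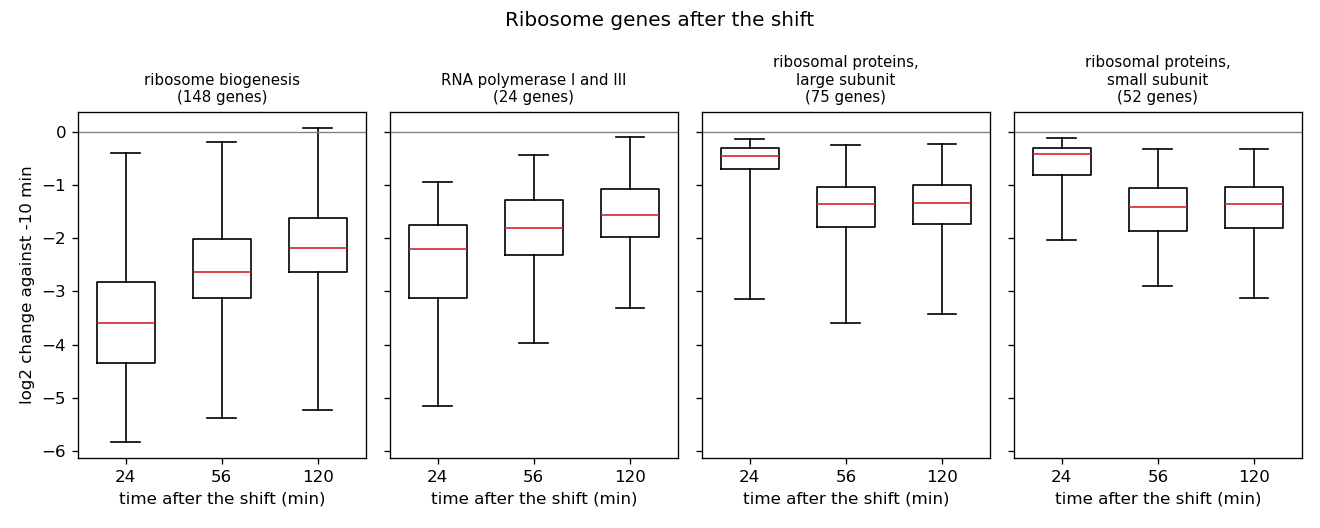
Log2 change against −10 min at 24, 56 and 120 min for genes of ribosome biogenesis, RNA polymerases I and III, and both ribosomal subunits (line: median, box: quartiles, whiskers: lowest and highest gene). The median of the biogenesis genes goes from −3.59 to −2.63 and −2.19, and that of the large subunit from −0.45 to −1.35 and −1.34. The spread shown is between genes, not between samples.

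Among N-source genes the largest differences from 24 min were downwards. UGA4, the GABA permease gene, read 669.5, 724 and 718 at −10 min, 7629, 7139 and 7935 at 24 min and 1047 and 944 late, so that a rise of 3.43 on the log2 scale at 24 min had shrunk to 0.50 (late minus 24 min −2.93 ± 0.17, adjusted p = 3.59e-08 in limma). DAL4, the allantoin permease gene, read 11974, 13000 and 12143 at 24 min, against 2600, 2870 and 2450 before and 1996 and 2894 late (late minus 24 min −2.36 ± 0.12). One of its late arrays lay below and the other just above the range at −10 min. DAL2 differed from 24 min by −1.88 ± 0.10, and 5 of the 9 allantoin and urea genes were lower late than at 24 min with none higher. Of the proline genes, PUT1, PUT2 and PUT3 did not pass against 24 min, and PUT4 differed by −0.33 ± 0.072 on the log2 scale. GDH2 differed from 24 min by 0.96 and GDH1 by −1.33. FIT2, by contrast, rose mainly after 24 min, from 1421, 1225 and 1352 at 24 min to its late level, a difference of 3.03 ± 0.081 (adjusted p = 8.71e-11 in limma).

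The largest increase from the 56 to the 120 min array was that of TKL2. TKL2, a minor transketolase, read 428 at 56 min and 1522 at 120 min (difference 1.83 ± 0.26 on the log2 scale, adjusted p = 0.00207 in limma), against 147, 192 and 199 at −10 min. YGP1, a cell wall-related glycoprotein of nutrient-limited cells, went from 3298 to 9000 (1.45 ± 0.14), and SIP18 from 989 to 2696 (1.45 ± 0.33). FMP45, HBT1 and YRO2 were higher at 120 min by 1.12, 1.08 and 1.08, and YRO2 lay below all 3 glutamine arrays at 56 min and above them at 120 min. The 6 largest decreases were those of YAL037C-A, YHR022C, YJL218W, SPO16, TIS11 and HOP1, from 3014 to 1650 for TIS11, an mRNA-binding protein of iron limitation, with differences of −0.86 to −0.96 on the log2 scale over the 6. Each time is 1 array of the same culture, so that the difference cannot be told apart from variation between samples of that culture beyond the spread seen at other times.

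**Figure D5:**
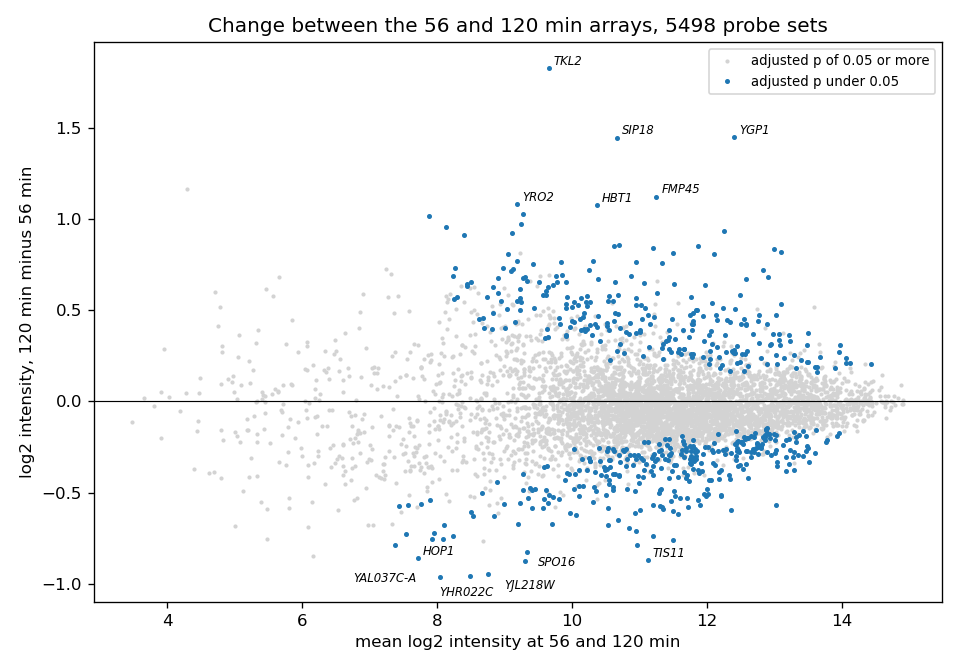
Log2 intensity at 120 min minus that at 56 min against the mean log2 intensity of both arrays for 5498 probe sets. Blue points (572) passed an adjusted p of 0.05, and the 6 largest differences in each direction are named, with TKL2 at 1.83 the highest and YAL037C-A at −0.96 the lowest.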

How the data were processed

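RNA of S. cerevisiae YSBN6 was hybridised to Affymetrix Yeast Genome 2.0 arrays, 15 in all. Per the labels and the study's methods, the authors made the deposited intensities with the RMA background step, perfect-match probes, normalization between arrays by QSPLINE and the Li and Wong index (R 2.10.0 and affy in the submitters' processing notes). The values are linear intensities, with 1 array per sample and no pooling. The number of arrays limits the precision.

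Intensities were taken to log2 without a pseudocount and fitted in limma 3.58.1 (R 4.3.3, statmod 1.5.0) with 1 mean for each of 9 sampled times and an intensity trend in the spread, followed by Benjamini-Hochberg adjustment over all 5498 probe sets with 1 gene. Late arrays were contrasted with −10 min, with 24 min and with each other. A gene with several probe sets was represented by its brightest one, and signals at or below background were raised to it for lower bounds of folds. Groups were taken from the sample labels. Only −10, 7 and 24 min were sampled in separate cultures.

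Genes were named by rule: the 12 largest rises and falls that passed at both late times, the 6 largest differences in each direction between the late arrays, the 4 largest in each direction against 24 min, all members of 7 N-source lists, and up to 4 members with the largest changes of each other list, with those that did not pass in lists of up to 10. Exceptions within a list and genes said to be looked up lie outside this rule and were chosen after their values were seen. The comparison, the lists and the rule were chosen with earlier results of these data known. Genes were matched to lists by symbol or unique synonym, and 3683 probe sets with no gene listed in the annotation used here entered no comparison.

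The replicate numbers mark cultures in the labels, so they pair arrays across times. Deviations of same-numbered arrays from their time means correlated between −0.27 and 0.19. Scaling, pseudocount, filter, trend, block and left-out arrays were varied. The script was tested on simulated data.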

Additional observations from a re-analysis of the deposited data

Results flagged for a closer look

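Arrays at 56 and 120 min differed, by the test of the difference itself, in 40 of the 228 named genes, each time being 1 array of the same culture. Over all probe sets 572 of 5498 (10.4%) passed this test. Some of the 40, from TKL2 to YRO2 and from YAL037C-A to HOP1 below, were named for their large difference between these same arrays. The count is therefore partly fixed by the naming rule and is not a rate to set against 10.4%. Log2 differences of 120 minus 56 min were 0.91 for RPA43, 0.66 for RPA49, 0.65 for RPA135, 0.53 for RPA190, 0.84 for GUA1, 0.77 for URA1, 0.56 for RKI1 and 0.27 for KRS1. They were 0.46 for PRO1, 0.39 for LEU2, 0.36 for MET1, 0.34 for HOM3, 0.29 for ARO4, 0.29 for ILV3 and 0.28 for LYS4, while HIS4 differed by −0.17 and ASN2 by −0.2. Among N-source genes the differences were 0.67 for DUR3, 0.65 for DAL2, 0.5 for MEP1, 0.37 for GAT1, 0.31 for DAL3 and 0.25 for DAL7.

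Also higher at 120 min were TKL2 with 1.83, YGP1 with 1.45, SIP18 with 1.45, FMP45 with 1.12, HBT1 with 1.08, YRO2 with 1.08, SPG4 with 0.85, PAI3 with 0.54 and RPN4 with 0.24. Lower at 120 min were YAL037C-A with −0.96, YHR022C with −0.96, YJL218W with −0.95, SPO16 with −0.88, TIS11 with −0.87, HOP1 with −0.86, RPS9A with −0.62 and the G1 cyclin gene CLN2 with −0.43.

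Signal changed as well on probe sets that the comparisons did not use, each set being fitted and adjusted on its own. Of 1746 probe sets annotated to another organism 57 were higher and 137 lower late on proline, and 92 had a mean level above the background. Of 3683 probe sets with no gene listed, 317 were higher and 392 lower, and 556 lay above background.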

How the results depend on the processing

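The counts of probe sets that passed stayed within 1.5 times their main value under every alternative run. Against −10 min the count of 4522 ranged from 4107 to 4617, and from 4353 to 4422 when 1 array at −10 min was left out, with 4201 to 4293 for 56 min and 4093 to 4162 for 120 min alone. Against 24 min the count of 3073 ranged from 2707 to 2927 with 1 array at 24 min left out. With the culture as a replicate block the counts were 4293 (late), 4137 (56 min), 4047 (120 min), 2609 (against 24 min) and 425 (120 against 56 min, main 572). Quantile normalization gave 857 for the latter. The share of calls that were higher at 120 min, 44.6%, became 55.7% after median centring.

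Named genes with small changes turned in direction. Against −10 min, quantile normalization gave 0.0383 for ARG1, 0.1139 for BAP3, −0.0995 for HTZ1 and −0.0698 for LYP1, and median centring −0.0153 for HTZ1 and −0.0269 for LYS2. BAP3 was 0.2462 without the −10 min array of replicate 2, −0.1451 without that of replicate 1 and 0.2752 with only the −10 min array of replicate 1, a setting added after seeing the data. With the 56 min array only, values were 0.0841 for BAP3, 0.2314 for YJL218W and −0.2453 for YRO2. With the 120 min array only, they were 0.1357 for DAL4, 0.0824 for DAL7, 0.0813 for GAT1, 0.0176 for GZF3, −0.0333 for HTB2, −0.0028 for HTZ1 and −0.0054 for SSY5. The cause was not tested. Between 216 and 228 of the 228 named genes kept their direction and side of the threshold under each setting. Each late time rests on 1 array of 1 culture, and values at or below background have no order.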

Other observations

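Some genes of iron uptake, chosen here after their values were seen and not counted as a list, did not move together. Over all probe sets 494 (8.99%) were called at 24 min and not late. FTR1, the iron permease, read 7512, 7207 and 7329 at −10 min, 2786, 2223 and 2851 at 24 min and 8071 and 6612 at 56 and 120 min, so that the late arrays lay on either side of the glutamine level and far above 24 min (late minus 24 min 1.49 ± 0.082, adjusted p = 2.71e-08 in limma). FET4, the low-affinity iron transporter, read 638, 688 and 749.5 at −10 min, 347, 267 and 342 at 24 min, 864 at 56 min and 487 at 120 min, and its 120 min array was below its 56 min array by a log2 difference of −0.83 ± 0.21. The siderophore transporters SIT1 and ENB1 were below −10 min at 24 min by log2 changes of −0.88 and −0.71, did not pass late (−0.085 and 0.079), and differed between 120 and 56 min by −0.57 and −0.43. ARN2 was higher late (1.06 ± 0.081), while its 24 min change was −0.10. FIT2 rose 14.1-fold, but its relatives FIT1 and FIT3 changed by 0.52 and −0.0078.

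Some isozyme pairs, likewise picked after seeing the values, changed unequally. BAT1, the mitochondrial branched-chain transaminase, fell from 14686, 14417 and 14671 to 5798 and 6506 (−1.25 ± 0.051) while cytosolic BAT2 rose by 1.78. TKL1, the major transketolase, fell from 15167, 15338 and 15509 to 9607 and 9884 (−0.65 ± 0.026) while TKL2 changed by 2.19. The pyruvate carboxylase genes PYC1 and PYC2 changed by 0.73 and −0.30, and the isopropylmalate synthase LEU4 by −0.16, against −3.86 for LEU9.

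Some genes lay below the glutamine level at 24 min and above it late. SSK22, a kinase of the osmosensing pathway, read 1011, 1086 and 994 at −10 min, 554, 451 and 512 at 24 min and 2587 and 2109 late (late minus 24 min 2.21 ± 0.093). PRM5 read 2671, 2597 and 2365 at −10 min, 1303, 1294 and 1215 at 24 min and 5410 and 4173 late. TIP1, a cell wall mannoprotein, read 4795, 5058 and 4689 at −10 min, 2422, 2649 and 2359 at 24 min, 6596 at 56 min and 11632 at 120 min. They are 3 of the 178 probe sets with calls in opposite directions. MTH1, a repressor of hexose transporter genes, rose from 697, 714 and 633 to 3132 and 3354 (2.25 ± 0.10).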
